A study of Mus musculus with 4 samples.

Results

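Among CD4 T cells sorted from the spleens of 2 host mice, a small set of cell barcodes held transcripts of C1q, a complement protein made chiefly by macrophages. Barcodes with at least 500 genes and at most 10% of their UMIs (unique molecular identifiers, the counted molecules) from mitochondrial genes were kept. Those whose C1qa, C1qb and C1qc UMIs summed to 3 or more are called C1q+ barcodes here, and those with a sum of 0 are called C1q- barcodes. There were 155 C1q+ barcodes among 19502 kept barcodes, 64 in mouse 1 and 91 in mouse 2. They were 0.649% of the kept barcodes in mouse 1 (95% exact binomial interval 0.500 to 0.828%) and 0.944% in mouse 2 (0.761 to 1.16%). The C1q- barcodes numbered 19071, and the remaining 276 barcodes had a sum of 1 or 2.

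Each of the 2 hosts, NOD.Rag1null mice, had received 5000000 CD4 T cells purified from spleens of B6.H2g7 donors of strain B6.NOD-(D17Mit21-D17Mit10)/LtJ, aged 6 to 8 weeks. After 14 days, live cells that stained for CD4 and for T cell receptor β were recovered from each host spleen by flow cytometry and sequenced for gene expression and for T cell receptors (10x Genomics 5′ v2). NOD.Rag1null hosts make no T or B cells of their own but keep their other spleen cells, macrophages included, and both classes of barcodes come from the same 2 hosts and libraries. The labels name 2 donors and do not say whether their cells were pooled.

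C1q is the recognition molecule of the classical complement pathway. Its 3 chains, A, B and C, come from tissue macrophages and some dendritic cells, and C1q aids the clearance of dying cells. In the spleen, red pulp macrophages take up aged red cells, degrade heme with the enzyme encoded by Hmox1 and export iron through ferroportin, encoded by Slc40a1; their identity depends on the transcription factor SpiC. Sorted CD4 T cells rearrange a T cell receptor β (TRB) gene and express CD3, so a TRB contig and Cd3e UMIs under the same barcode as C1q mark T cell RNA beside macrophage RNA.

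The files held 9996 barcodes with 70092822 UMIs for mouse 1 and 9733 barcodes with 75940181 UMIs for mouse 2, of which 9860 and 9642 barcodes were kept. The 2 libraries shared 162 kept barcode sequences, and 3 C1q+ barcodes were also kept in the other mouse, none of them as C1q+ there. Doublets were not removed, since barcodes that hold more than 1 cell are among those described.

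The 3 genes used by the rule lie side by side on the minus strand of chromosome 4 (GRCm38), within 18675 bases. They are C1qb (ENSMUSG00000036905, chr4:136880129-136886187), C1qc (ENSMUSG00000036896, chr4:136889804-136893065) and C1qa (ENSMUSG00000036887, chr4:136895917-136898803), each protein-coding with 3 exons in its first listed transcript. Because the chains were found together, the 250 bases before the start that RefSeq (GRCm38.p6) gives for C1qb and for C1qc are shown, 5′ to 3′ on the minus strand. RefSeq's start of C1qc differs from the gene bounds above, so its stretch lies partly inside them. The C1qb stretch is chr4:136886201-136886450 and the C1qc stretch is chr4:136892915-136893164. Capitals mark GAGGAA or its reverse complement TTCCTC, a form of the core bound by PU.1, the factor encoded by Spi1 that directs macrophage development.
C1qb: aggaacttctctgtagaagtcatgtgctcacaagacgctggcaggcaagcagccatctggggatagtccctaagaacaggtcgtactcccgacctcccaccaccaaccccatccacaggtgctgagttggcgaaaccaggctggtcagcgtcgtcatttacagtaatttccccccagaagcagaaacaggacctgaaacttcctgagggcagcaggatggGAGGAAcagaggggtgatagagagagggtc
C1qc: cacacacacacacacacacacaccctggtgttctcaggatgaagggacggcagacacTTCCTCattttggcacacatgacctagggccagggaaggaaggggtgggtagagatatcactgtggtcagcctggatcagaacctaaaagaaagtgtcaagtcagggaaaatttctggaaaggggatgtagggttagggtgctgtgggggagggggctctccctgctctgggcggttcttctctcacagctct
Each stretch holds 1 match, on the gene's own strand for C1qb and on the other strand for C1qc. Of 32851 promoters in the same table, 23.3% hold a match on either strand in their 250 bases, so the match is a common one.

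The barcodes were chosen by their C1q UMIs, so C1q values are a description with no test. Summed over the C1q+ barcodes, C1qa reached 435 UMIs per 1000000 UMIs (CPM) in mouse 1 and 402 in mouse 2, C1qb 498 and 398 CPM, and C1qc 471 and 336 CPM. All 3 chains were detected in 113 of the 155 barcodes, 2 chains in 39 and 1 chain in 3. The C1q sum had a median of 5 in mouse 1 and 7 in mouse 2, with a highest value of 203 in mouse 1 and 77 in mouse 2. Just inside the threshold, 17 barcodes of mouse 1 and 12 of mouse 2 had a sum of 3, and H2-Aa UMIs were found in 10 and 8 of them. Just outside it, 17 and 32 barcodes had a sum of 2, with H2-Aa UMIs in 9 and 16 of them.

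Nearly all C1q+ barcodes also carried T cell RNA. A TRB contig and Cd3e UMIs were found together in 94 of the 155 barcodes (60.6%), 36 in mouse 1 and 58 in mouse 2. Another 52 (33.5%), 22 and 30 by mouse, had Cd3e UMIs without a TRB contig. No C1q+ barcode had a TRB contig without Cd3e. Only 9 (5.81%), 6 in mouse 1 and 3 in mouse 2, had neither. The label of macrophage transcripts thus fits the RNA found, but most of these barcodes were not macrophage RNA alone.

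**Figure D1:**
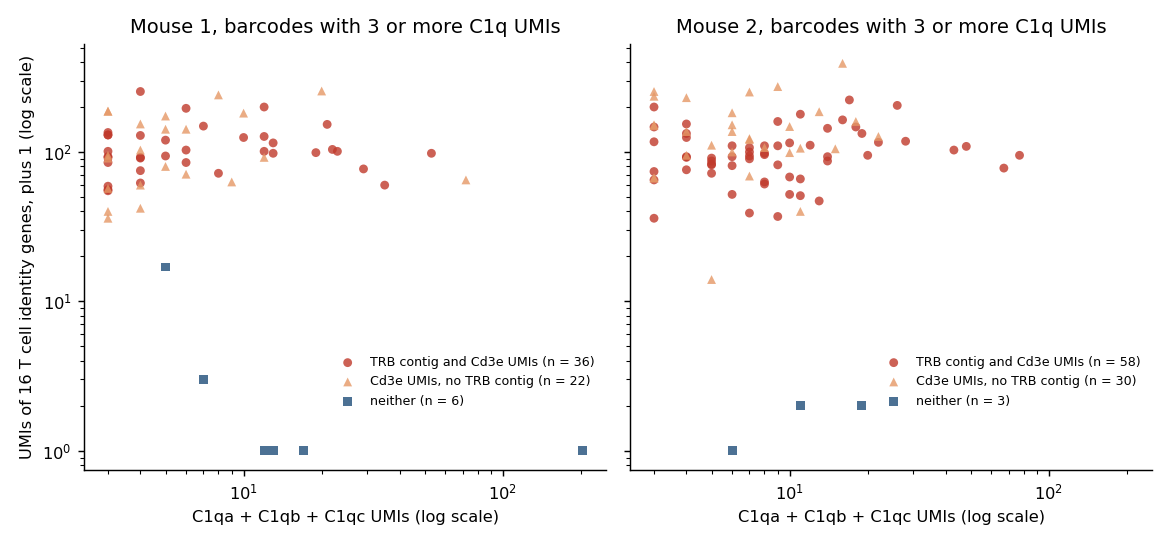
Each point is 1 C1q+ barcode, with its C1q UMI sum on the horizontal log axis and its UMIs of 16 T cell identity genes plus 1 on the vertical log axis, for mouse 1 (left) and mouse 2 (right). Barcodes with a TRB contig and Cd3e UMIs and those with Cd3e UMIs alone lie at similar T cell levels, and the 6 and 3 barcodes with neither lie lowest, at 0 to 16 T cell UMIs, where the lowest barcode with Cd3e UMIs alone, at 13, overlaps them.

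The 9 barcodes with neither signal were shallow and rich in C1q. They held 795 to 7311 UMIs (median 1021), against a median of 7893 UMIs in the barcodes with TRB contig and Cd3e and 9659 in those with Cd3e alone. C1q made up a median of 11 per 1000 UMIs in the 9 barcodes, against 0.949 with TRB contig and Cd3e and 0.530 with Cd3e alone. UMIs of the 16 T cell identity genes, such as Cd3e, Cd3d and Trac, had a median of 0 in the 9 barcodes and reached 16 in 1 of them. The same genes had a median of 96 UMIs with TRB contig and Cd3e and 121 with Cd3e alone.

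The 9 barcodes were not all alike. The mouse 1 barcode with 203 C1q UMIs was the deepest, with 7311 UMIs, and had UMIs of 19 of 20 other macrophage identity genes, 194 UMIs of red pulp and marginal zone macrophage genes and no T cell identity UMI. Red pulp and marginal zone genes gave 8 to 194 UMIs in 8 of the 9 barcodes. The other one, in mouse 2, had 0 of them, 6 C1q UMIs and 15 UMIs of Lyz2, which encodes lysozyme. The barcode with 16 T cell identity UMIs also had the highest mitochondrial share of the 9, at 5.18%.

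TRB contigs, which the rule did not use, were somewhat less frequent in C1q+ than in C1q- barcodes in both mice. In mouse 1 the share was 56.3% of C1q+ barcodes (95% exact interval 43.3 to 68.6%) and 68.2% of C1q- barcodes (67.3 to 69.2%). In mouse 2 it was 63.7% (53.0 to 73.6%) and 73.1% (72.2 to 74.0%). The intervals of the 2 classes overlapped in each mouse, and 2 mice are too few for a permutation test to reach 0.05. Among barcodes with a contig, 22.2% of C1q+ barcodes in mouse 1 (10.1 to 39.2%) and 13.8% in mouse 2 (6.15 to 25.4%) had 2 or more TRB chains, against 10.5% and 9.87% of C1q- barcodes. The C1q- values lay inside the C1q+ intervals in both mice.

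Cd3e, which encodes a CD3 chain of the T cell receptor complex, was found in 90.6% of C1q+ barcodes in mouse 1 and 96.7% in mouse 2, against 96.9% and 97.7% of C1q- barcodes. C1q+ barcodes were deeper, with a median of 7707 UMIs in mouse 1 and 8630 in mouse 2, against 5879 and 6552 UMIs in C1q- barcodes. After each barcode was thinned to 2000 UMIs, which left out 4 C1q+ barcodes in each mouse and 422 and 193 C1q- barcodes, Cd3e remained in 91.7% and 97.7% of C1q+ barcodes and in 91.3% and 91.9% of C1q- barcodes. Median UMIs of the 16 T cell identity genes were 93.5 and 102 in C1q+ barcodes and 72 and 79 in C1q- barcodes, or 23 and 22 against 24 and 23 after thinning. Summed over barcodes, Cd3e had a log2 fold change of 0.24 between C1q+ and C1q- barcodes, given without a test like the other values of this contrast. By the thinned medians a C1q+ barcode held about as much T cell RNA per UMI as a C1q- barcode.

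H2-Aa, which encodes a chain of MHC class II and which resting mouse T cells do not make, had UMIs in 82.8% of C1q+ barcodes in mouse 1 and 83.5% in mouse 2. The same share was 2.21% and 2.13% of C1q- barcodes, and 1.78% and 1.86% of those with exactly 1 TRB chain. H2-Aa in C1q- barcodes was at 165 and 50.8 CPM without a TRB contig, against 9.70 and 9.57 CPM with one. The C1q- barcodes are thus no pure level of cells that lack the gene. UMIs of 3 or more of the 20 other macrophage identity genes were found in 93.8% and 100% of C1q+ barcodes, against 9.54% and 10.0% of C1q- barcodes. After thinning these shares were 55.0% and 63.2%, against 0.962% and 0.815%.

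**Figure D2:**
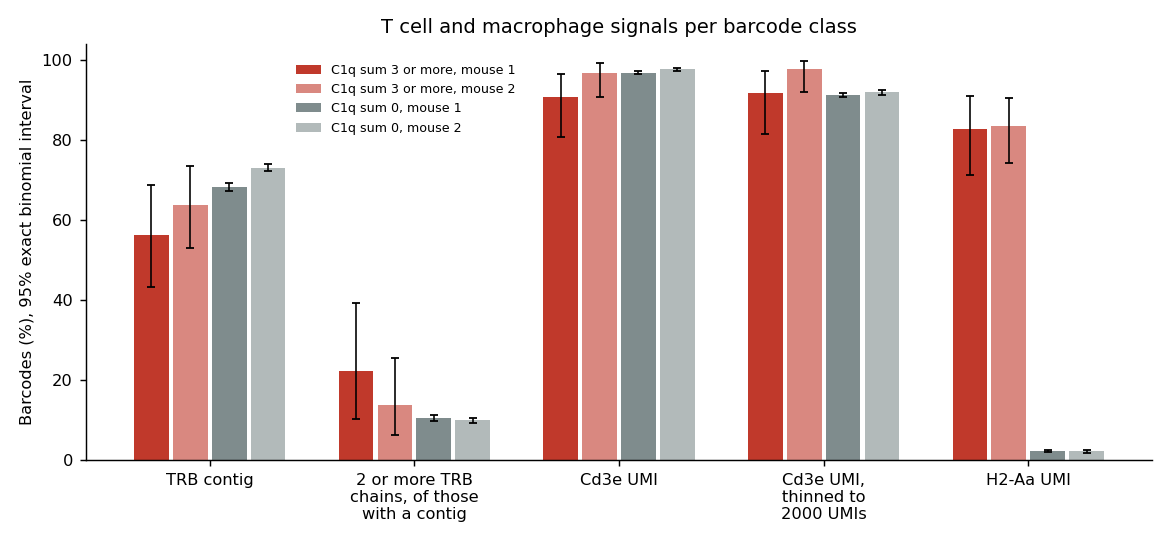
Bars give the percent of barcodes with each signal in C1q+ barcodes (red, sum of 3 or more) and C1q- barcodes (grey, sum of 0) of each mouse, and lines are 95% exact binomial intervals. H2-Aa is in 82.8% and 83.5% of C1q+ barcodes and about 2% of C1q- barcodes, while the TRB and Cd3e shares of the classes lie close together.

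Macrophage content grew with the C1q sum. T cell content changed far less from a sum of 3 upward, with a small steady rise in mouse 2 only. Median UMIs of the 20 other macrophage identity genes were 2 in both mice at a C1q sum of 0, 3 in both at 1, and 5 in mouse 1 and 6 in mouse 2 at 2. They were 8 and 11 at sums of 3 to 5, 18 and 15 at 6 to 10, and 40 and 30 at 11 or more. T cell identity UMIs had medians of 91 and 93 at sums of 3 to 5, 113 and 98.5 at 6 to 10, and 97 and 108 at 11 or more. TRB contigs were found in 54.5% and 60.7% of barcodes at sums of 3 to 5 and in 50% and 61.8% at 6 to 10. At 11 or more the shares were 63.2% and 69.0%, and all these intervals were wide. From a sum of 3 upward each chain made up 24.3 to 43.0% of the C1q UMIs in every range of sums and mouse. At 11 or more, C1qa made up 29.9% and 34.5%, C1qb 35.4% and 35.0%, and C1qc 34.7% and 30.5%.

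**Figure D3:**
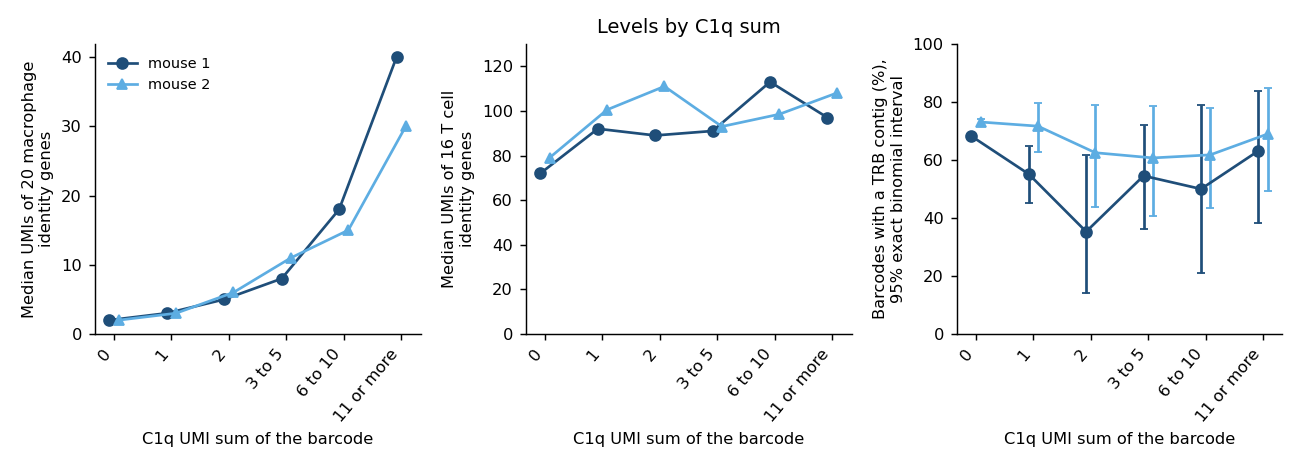
Panels show, by C1q UMI sum from 0 to 11 or more and by mouse, the median UMIs of 20 macrophage identity genes, the median UMIs of 16 T cell identity genes and the percent of barcodes with a TRB contig with its 95% exact binomial interval. The macrophage medians climb to 40 and 30 UMIs, while T cell medians stay at 91 to 113 UMIs from a sum of 3 upward.

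UMIs were summed per mouse and class to compare all genes. The contrast of C1q+ with C1q- barcodes is the one the rule set up, and other macrophage transcripts enter a barcode together with C1q, so their values are a description without a test. As background, edgeR called 774 of 14060 genes at an adjusted p under 0.05, 5.50% of those tested, with 476 higher (3.39%) and 298 lower (2.12%) in C1q+ barcodes. Nothing about the barcodes' macrophage content is read from that count. In the gene lists that follow for this contrast, higher and lower mean called in this way. Genes passed the filter on low counts partly through the class where they were high. Every such list count is therefore a description, to be set beside the 3.39% and 2.12% above, and supports nothing further. The median log2 fold change over all tested genes was -0.05.

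Genes of red pulp macrophages stood out in level. Vcam1, an adhesion molecule of these cells, was at 241 CPM in mouse 1 and 164 CPM in mouse 2 in C1q+ barcodes, against 0.469 and 0.450 CPM in C1q- barcodes. Hmox1, heme oxygenase, was at 1012 and 658 CPM, against 13.3 and 13.8 CPM. Slc40a1, the iron exporter ferroportin, was at 224 and 169 CPM, against 0.527 and 0.790 CPM. Both C1q+ sums lay above both C1q- sums for each of these genes. Spic, the transcription factor of this cell type, was at 121 and 86.0 CPM, against 0.483 and 0.477 CPM. Cd5l, a secreted macrophage protein, was at 157 and 95.1 CPM, against 0.190 and 0.232 CPM.

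Of 17 red pulp and marginal zone genes listed, 14 passed the filter on low counts, and all 14 were higher in C1q+ barcodes, with 2120 and 1510 CPM over the list, against 22.4 and 25.4 CPM. The filter kept genes partly through the class where they were high, so this count supports nothing further. Vsig4 and Cd209b had no UMI in C1q+ barcodes. Timd4, a receptor for dying cells, had UMIs in 8 and 10 C1q+ barcodes, and the scavenger receptor Marco was at 22.2 and 12.4 CPM, against 0.0293 and 0.0409 CPM. Vcam1 was detected in 39 of 64 and 56 of 91 C1q+ barcodes, and no barcode held over 13.5% of its UMIs, so its level did not rest on a single barcode.

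General macrophage genes were present as well. All 20 genes of the macrophage identity list were higher, with 2733 and 2708 CPM in C1q+ barcodes and 479 and 387 CPM in C1q- barcodes, and a median log2 fold change of 5.72. The largest log2 fold changes among genes of at least 20 CPM were 9.79 for Fcna, a ficolin of the lectin complement pathway, 9.43 for Mertk, a receptor for dying cells, and 9.16 for Cd5l. Ms4a7 (8.79), Vcam1 (8.76), the chemokine gene Ccl8 (8.61), the lipoprotein gene Apoe (8.50) and the growth factor receptor gene Csf1r (8.30) came next. In mouse 1, 15 of 19 Mertk UMIs were in 1 barcode, and in mouse 2, 25 of 30 Ccl8 UMIs were. Csf1r, whose product macrophages need to survive, was at 81.9 and 63.4 CPM, against 0.308 and 0.163 CPM. Lyz2, high in monocytes and many other macrophages, was uneven: in mouse 1 it was in 8 barcodes with 71.4% of its 49 UMIs in 1 of them, and in mouse 2 its 15 UMIs were all in 1 barcode.

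Antigen presentation genes were high in C1q+ barcodes in both mice. H2-Aa was at 562 and 691 CPM, against 65.2 and 22.8 CPM, and Cd74, the invariant chain, was at 1842 and 2103 CPM, against 320 and 226 CPM. In mouse 2, 1 barcode held 188 of 611 H2-Aa UMIs, and 1 barcode held 426 of 1858 Cd74 UMIs. Of the 11 genes of the MHC class II list, 10 were higher. Of 9 genes for costimulation and inhibition by antigen-presenting cells, only Cd86 was (log2 fold change 1.47). The T cell ligand Lgals9 was at 99 and 123 CPM, against 139 and 155 CPM, and was not called.

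Fc receptors, lysosome and iron genes followed the same pattern. Fcer1g, the shared signalling chain of Fc receptors, was at 323 and 294 CPM in C1q+ barcodes, against 8.47 and 2.90 CPM in C1q- barcodes. Of the list of 5 Fc receptor genes, 4 were higher. Among 20 tested genes for lysosomes and clearance of dying cells, 14 were higher, including Ctsb, a cathepsin, with 1229 and 1066 CPM, against 517 and 473 CPM. In the list of 11 iron and heme genes 8 were higher, and Fth1, the ferritin heavy chain, was at 3182 and 3024 CPM, against 1345 and 1342 CPM. T cells also express Ctsb and Fth1, and the C1q- levels of both were high.

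Of 16 other complement genes, a list that does not hold Fcna, 9 passed the filter and 3 were higher: Cfp, properdin of the alternative pathway, C6, a terminal component, and Cfb, factor B. Cfp was at 88.8 and 95.1 CPM, against 3.63 and 2.07 CPM, and C6 at 30.7 and 26.0 CPM, against 0.0586 and 0.150 CPM. Hc, C3ar1, Serping1 and Clu had no UMI in C1q+ barcodes. Among 16 tested macrophage cytokine and chemokine genes 7 were higher, among them Ccl8, Ccl24, Cxcl9 and Il18.

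**Figure D4:**
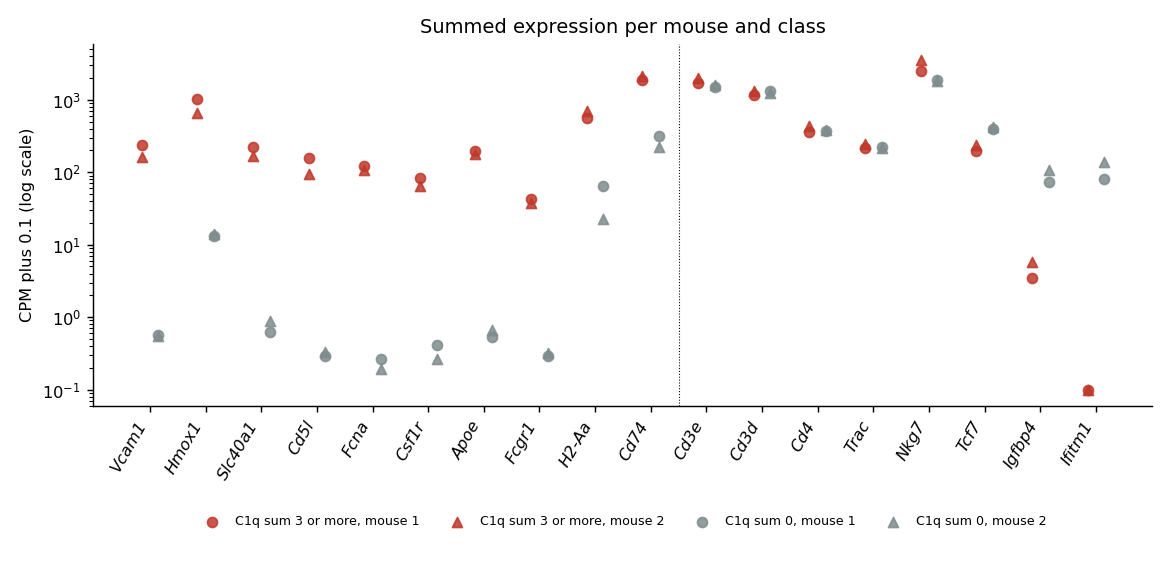
Points give CPM plus 0.1 on a log axis, summed over C1q+ barcodes (red) and C1q- barcodes (grey) of mouse 1 (circles) and mouse 2 (triangles), with macrophage genes left of the dotted line and T cell genes right of it. The macrophage genes separate the classes, Cd3e, Cd3d, Cd4 and Trac lie close together in both, with Cd3e at 1681 and 1976 CPM in C1q+ barcodes, against 1520 and 1588 CPM in C1q- barcodes, and Igfbp4 and Ifitm1 are low in C1q+ barcodes.

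For markers of other cell types, none of the neutrophil, NK cell, CD8 T cell or stroma and endothelium genes tested was called, and no platelet gene passed the filter. S100a8, Ly6g, Cd79a, Ncr1, Cd8a, Clec9a and Siglech had no UMI in C1q+ barcodes, which at this depth allows up to 2.04 CPM for each over both mice. Other genes of these cell types did have UMIs. The B cell gene Cd79b was in 6 of 64 and 2 of 91 C1q+ barcodes, against 1.28% and 2.39% of C1q- barcodes. Cd8b1 was in 5 of 64 and 5 of 91, against 5.06% and 5.48%. In mouse 1 the neutrophil gene S100a9 was in 4 of 64, against 1.51%. The dendritic cell gene Flt3 had 4 UMIs, all in 1 barcode of mouse 2. Of 7 tested dendritic cell genes Batf3, a transcription factor, was higher, at 8.54 and 14.7 CPM, against 1.14 and 0.368 CPM. Of 5 tested monocyte genes Ly6c2 was higher, at 59.7 and 147 CPM, against 43.0 and 57.1 CPM, and Ccr2 lower, at 61.5 and 29.4 CPM, against 77.7 and 105 CPM. Of 3 tested B cell genes Ighm was lower. Of 6 tested erythroid genes 5 were higher, among them the hemoglobin gene Hbb-bs at 7793 and 837 CPM, against 6.53 and 22.3 CPM, and 1 barcode held 4494 of 4565 Hbb-bs UMIs in mouse 1 and another 547 of 740 in mouse 2. The mouse 1 barcode also had 72 C1q UMIs and Cd3e UMIs without a TRB contig, and the mouse 2 barcode had 19 C1q UMIs with both T cell signals. The part of red cell RNA in the other results was not tested, but without the 2 barcodes of each mouse with the most Hbb-bs UMIs 755 genes were called.

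To see which T cells shared barcodes with C1q, C1q+ and C1q- barcodes with exactly 1 TRB chain were compared, 28 and 50 C1q+ barcodes in mouse 1 and mouse 2, against 5906 and 6192 C1q- barcodes. T cell state genes were not used by the rule, and this comparison tests them. The C1q+ barcodes were deeper here too, with medians of 7203.5 and 8230 UMIs, against 5583.5 and 6201 UMIs in C1q- barcodes. Barcodes were not thinned for this comparison, so the part of depth in the T cell differences below was not tested. With edgeR, 432 of 12744 genes passed an adjusted p of 0.05 (3.39%), 271 higher (2.13%) and 161 lower (1.26%), with a median log2 fold change of -0.11 over all genes. The higher calls again included macrophage genes: 19 of 19 tested macrophage identity genes and 12 of 12 tested red pulp and marginal zone genes, which are a description here as well.

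T cell identity genes hardly differed. Summed over the list of 16, they gave 12046 and 11667 CPM in C1q+ barcodes and 11633 and 11378 CPM in C1q- barcodes. Of 13 tested, Cd3e rose (log2 fold change 0.33 ± 0.09 SE, adjusted p = 0.0122, edgeR) while the surface receptor gene Cd5 fell. Cd3e was at 1917 and 2069 CPM in C1q+ barcodes, against 1536 and 1641 CPM in C1q- barcodes. Neither passed with DESeq2 or without mouse as a block. Cd4 was at 386 and 492 CPM, against 376 and 394 CPM, and did not pass the threshold.

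Genes of naive T cells were lower in the C1q+ barcodes. Of 9 genes on the list 8 fell, with a median log2 fold change of -1.29 against -0.11 over all genes. Tcf7, a transcription factor of naive and memory-like T cells, was at 185 and 169 CPM in C1q+ barcodes, against 405 and 432 CPM in C1q- barcodes (log2 fold change -1.26 ± 0.16 SE, adjusted p = 1.99e-13, edgeR). Tcf7 UMIs were in 10 of 28 and 16 of 50 C1q+ barcodes, against 56.4% and 56.3% of C1q- barcodes. Lef1, its relative, was at 105 and 78.4 CPM, against 203 and 211 CPM. Klf2, which keeps T cells circulating, was at 365 and 356 CPM, against 531 and 607 CPM. Its share of barcodes differed less, at 42.9% and 54% of C1q+ barcodes, against 49.5% and 54.5% of C1q- barcodes. The homing gene Ccr7 and the cytokine receptor gene Il7r also fell, and the classes did not overlap for any of these 5 genes. Igfbp4 had 4.19 and 0 CPM in C1q+ barcodes, against 58.0 and 89.0 CPM. It was in 1 of 28 and 0 of 50 C1q+ barcodes, against only 3.69% and 4.97% of C1q- barcodes, so its fall rests on few barcodes. With DESeq2, 4 of the 9 passed (Igfbp4, Il7r, Lef1 and Tcf7), and without mouse as a block 6 did, Ccr7 and Il7r being lost.

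Follicular helper genes did not move as a block. Of 13 genes, 5 fell and 2 rose. Sostdc1, a secreted Wnt and BMP antagonist made by some follicular T cells, was at 4.19 and 26.1 CPM in C1q+ barcodes, against 209 and 170 CPM in C1q- barcodes (log2 fold change -3.35 ± 0.30 SE, adjusted p = 5.39e-26, edgeR). Sostdc1 was in 1 of 28 and 1 of 50 C1q+ barcodes, against 17.1% and 16.6% of C1q- barcodes. Cxcr5, the receptor for B cell follicles, was at 16.8 and 16.6 CPM, against 62.8 and 54.6 CPM. Icos and Slamf6 fell too, as did the cytokine gene Il4, which had no UMI in C1q+ barcodes, against 12.2 and 12.6 CPM in C1q- barcodes, where it was in 4.08% and 4.41% of barcodes. Pdcd1, which encodes the inhibitory receptor PD-1, rose, with 398 and 596 CPM, against 310 and 321 CPM. Il21, a cytokine gene, was at 101 and 169 CPM, against 79.1 and 67.0 CPM. With DESeq2 only Pdcd1, Slamf6 and Sostdc1 of this list passed.

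Of 12 Th1 and effector genes 5 rose and 1 fell. Nkg7, a gene of cytotoxic granules, was at 2860 and 3719 CPM in C1q+ barcodes, against 1816 and 1856 CPM in C1q- barcodes (log2 fold change 0.83 ± 0.08 SE, adjusted p = 3.29e-20, edgeR), and it alone of the list passed with DESeq2. Tbx21, the Th1 transcription factor, was at 105 and 133 CPM, against 67.2 and 74.0 CPM, and Il12rb2, the IL-12 receptor chain, at 71.3 and 42.8 CPM, against 25.4 and 23.5 CPM. The calls of Ccl5 and Ly6c2 came from mouse 2 alone: the chemokine gene Ccl5 was at 10473 and 16764 CPM, against 11434 and 10808 CPM, and Ly6c2 at 25.2 and 219 CPM, against 46.4 and 59.5 CPM. Gzmb, granzyme B, fell, with 172 and 124 CPM against 222 and 254 CPM.

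Of 9 regulatory T cell genes 3 fell, Izumo1r, Ikzf2 and Itgae, none of which passed with DESeq2. Izumo1r, which encodes folate receptor 4, was at 411 and 482 CPM in C1q+ barcodes, against 659 and 696 CPM in C1q- barcodes. Foxp3, the defining factor, was at 109 and 61.8 CPM, against 96.3 and 122 CPM, and did not pass. Of 11 genes of T cell receptor signal 2 rose, Tnfrsf9, which encodes 4-1BB, and Nr4a2, and neither passed with DESeq2. Nr4a2 was at 41.9 and 233 CPM, against 47.1 and 45 CPM, so it was higher in mouse 2 only. Of 13 proliferation genes Ube2c alone was called, with 411 CPM in mouse 1 and 66.5 CPM in mouse 2, against 130 and 80.3 CPM, again in opposite directions by mouse, and 1 barcode held 96 of its 98 UMIs in mouse 1.

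The 8 largest decreases included genes found in few barcodes of either class. Ifitm1, an interferon-induced membrane protein gene, had no UMI in any of the 155 C1q+ barcodes, which allows a share of up to 1.94% of barcodes, against 2.58% and 2.42% of C1q- barcodes. Among barcodes with 1 TRB chain, 0 of 78 C1q+ barcodes allows up to 3.85%, above the 2.24% and 2.18% of C1q- barcodes, so a lower share of barcodes was not detectable there. Lta, the lymphotoxin gene, was in 0 of the 78, against 11.3% and 11.2% of C1q- barcodes. Cpm, which encodes a carboxypeptidase, was in 1 of 28 and 1 of 50 C1q+ barcodes, against 9.89% and 12.5% of C1q- barcodes. Ly6c1, Rln3 and Xcl1 were each in 0 of 28 and at most 2 of 50 C1q+ barcodes, against 2.10 to 5.59% of C1q- barcodes. Summed counts do not carry the spread between barcodes, and with DESeq2 none of Ifitm1, Lta, Ly6c1, Rln3, Xcl1 and Cpm passed.

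**Figure D5:**
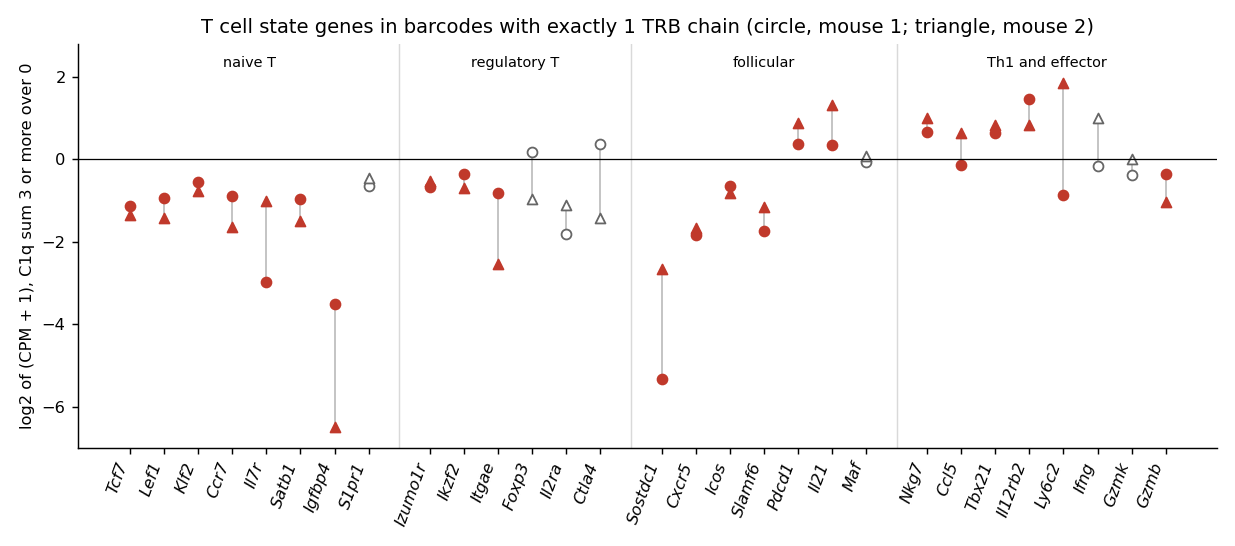
Points give, for barcodes with exactly 1 TRB chain, the log2 difference of CPM plus 1 between C1q+ and C1q- barcodes in mouse 1 (circles) and mouse 2 (triangles), and filled points mark genes at an adjusted p under 0.05 with edgeR. Called naive T cell genes lie below 0 in both mice, Nkg7 and Pdcd1 lie above it, and Ccl5 and Ly6c2 change side between mice.

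Within the C1q+ class, 36 and 58 barcodes with a TRB contig were compared with 28 and 33 without, among which are the 9 barcodes with neither T cell signal. With edgeR, 7 of 5663 genes passed (0.124%), 2 higher (0.0353%) and 5 lower (0.0883%) in barcodes with a contig. None of 18 tested macrophage identity genes or 9 tested red pulp and marginal zone genes was called. In data simulated for this comparison, 38% of 2-fold increases and 20% of 2-fold decreases were called. The lack of calls therefore does not show equal macrophage content. Summed red pulp and marginal zone genes were at 1695 and 1905 CPM with a contig, against 2619 and 1007 CPM without, lower with a contig in mouse 1 and higher in mouse 2. Vcam1 was at 193 and 190 CPM with a contig, against 297 and 131 CPM without, and H2-Aa at 474 and 603 CPM, against 664 and 804 CPM. Neither passed the threshold (log2 fold changes -0.05 ± 0.26 SE and -0.45 ± 0.14 SE). In mouse 2, 1 barcode without a contig held 188 of the 611 H2-Aa UMIs of all C1q+ barcodes. The mouse 2 level of H2-Aa without a contig thus leaned on that barcode. Cd3e was at 1904 and 2069 CPM with a contig and 1421 and 1858 CPM without, which did not pass either.

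Ccl5 and S100a6, an effector T cell gene, rose in C1q+ barcodes with a contig. S100a6 was at 2018 and 2423 CPM with a contig, against 1194 and 1272 CPM without (log2 fold change 0.84 ± 0.13 SE, adjusted p = 0.0372, edgeR). Xcl1, a chemokine gene of activated T and NK cells, fell, with 44.3 and 6.07 CPM with a contig, against 905 and 840 CPM without. Its high level came from few barcodes: Xcl1 was in 4 of 28 and 7 of 33 C1q+ barcodes without a contig, and 1 barcode held 212 of all 258 Xcl1 UMIs in mouse 1 and 137 of 330 in mouse 2. Crtam, an adhesion gene of activated T and NK cells, was at 3.16 and 8.09 CPM with a contig, against 89.0 and 100.2 CPM without. Crtam was in 5 of 28 and 7 of 33 C1q+ barcodes without a contig. Of all its UMIs in C1q+ barcodes, 1 barcode held 11 of 25 in mouse 1 and 16 of 43 in mouse 2. Spp1, Bcl2 and Phactr2 were the other 3 genes that fell. At a C1q sum of 5 or more no gene passed with edgeR, while 182 had an unadjusted p under 0.05, and with DESeq2 only Xcl1 passed in the main comparison. The difference made by a contig was then compared between C1q+ and C1q- barcodes with an interaction term, a test added after the data were seen. With edgeR 8 of 12864 genes passed (0.0622%), 6 higher (0.0466%) and 2 lower (0.0155%), and the 2 lower were Xcl1 and Crtam. Antigen-presenting and myeloid genes among the 6 higher are a description only. The rule chose C1q+ barcodes by macrophage RNA, with or without a contig.

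The receptors of the C1q+ barcodes were spread over many clonotypes, a clonotype being cells of 1 mouse with the same TRB chain. The 28 barcodes of mouse 1 with exactly 1 TRB chain fell into 26 clonotypes and the 50 of mouse 2 into 34, with 2 and 7 clonotypes holding 2 or more C1q+ barcodes. TRBV26, the segment that encodes Vβ3, was used by 12 of 28 (42.9%, 95% exact interval 24.5 to 62.8%) and 14 of 50 (28%, 16.2 to 42.5%), against 34.8% and 31.1% of C1q- barcodes. The C1q- shares lay inside these intervals. Cells of clonotypes with 2 or more cells were 57.1% (37.2 to 75.5%) and 78.0% (64.0 to 88.5%) of C1q+ barcodes, against 59.9% and 58.8% of C1q- barcodes. Only the mouse 2 interval excluded the C1q- share. That interval treats cells of 1 clonotype as independent, although 9 of the 50 barcodes were of 1 clonotype and 4 of another. It therefore does not show a difference in clone size.

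Both of the clonotypes with 4 or more C1q+ barcodes were in mouse 2. Their TRB junctions are shown from the conserved cysteine codon to the phenylalanine codon, both in capitals, 5′ to 3′; the TRB locus is on chromosome 6.
TRBV29 with TRBJ2-3: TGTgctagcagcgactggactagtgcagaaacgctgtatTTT
TRBV13-3 with TRBJ2-2: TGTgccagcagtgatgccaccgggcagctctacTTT
The TRBV29 clonotype held 9 of the 50 C1q+ barcodes (18.0%) and 366 of all kept mouse 2 cells with 1 TRB chain (5.78%). The TRBV13-3 clonotype held 4 C1q+ barcodes (8.00%) and 147 of all such cells (2.32%). Without the TRBV29 clonotype in either class, 340 genes were called between C1q+ and C1q- barcodes with 1 TRB chain. The 8 naive T cell genes remained lower without it, while Tbx21, Ly6c2, Ikzf2, Tnfrsf9, Nr4a2, Il4 and Cd5 no longer passed.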

How the data were processed

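Gene expression and T cell receptor libraries of 2 mice were used. The deposited gene expression files hold raw UMI counts per gene and barcode; the submitters' processing notes name Cell Ranger 7.0.1 and the mm10 (GRCm38) build. The deposited receptor tables give read and UMI counts per assembled contig, and productive TRB contigs were joined to barcodes within a mouse. UMI counts of each class were added up within a mouse and compared with edgeR 4.0.16 in R 4.3.3 (TMM factors, filterByExpr, quasi-likelihood test, mouse as a block, Benjamini-Hochberg adjustment over all tested genes, threshold 0.05), with DESeq2 1.42.0 as an alternative. The 4 sums leave 1 residual degree of freedom, and p-values do not carry the spread between barcodes, so single barcodes or clones can decide a gene. Same-numbered sums come from the same mouse and library, which is the pairing behind the block. Intervals are exact Clopper-Pearson intervals and cover counting error only, as do limits of 3 UMIs. Python 3 scripts thinned barcodes to 2000 UMIs with a fixed seed, and the fits were tested on simulated data. Members and gene lists were chosen with earlier results of these data known. Genes named are the 8 largest changes each way at 20 CPM or more, defining markers and the 3 highest members of each list; other list members were chosen after their values were seen. Some list members enter the counts and are not reported here by name. Sums of 1 and 2 were left out of gene comparisons. Whether the 2 hosts had separate donors is not stated, so p-values reach no further than these 2 mice. In both fits of C1q+ against C1q- barcodes a gene's spread was taken from the trend over all genes (infinite prior degrees of freedom). For C1q+ barcodes with against without a contig it was drawn toward that trend (prior degrees of freedom 9.91). A small p-value therefore does not show that the 2 mice were alike for that gene.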

Additional observations from a re-analysis of the deposited data

Results flagged for a closer look

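The difference between barcodes with and without a TRB contig was compared between C1q+ and C1q- barcodes with an interaction term, an alternative added after the data were seen. With edgeR 8 of 12864 genes passed (0.0622%), 6 higher (0.0466%) and 2 lower (0.0155%), and 765 had an unadjusted p under 0.05. The interaction was -5.48 on the log2 scale for Xcl1 and -3.48 for Crtam, both of which were lower with a contig among C1q+ barcodes. Both rested on few barcodes. In mouse 1, Xcl1 was in 4 of 28 C1q+ barcodes without a contig, and 1 barcode held 212 of all 258 UMIs. Crtam was in 5 of 28 and 7 of 33 C1q+ barcodes without a contig. Xcl1 was at 44.3 and 6.07 CPM with a contig, against 905 and 840 CPM without, among C1q+ barcodes, and at 55.1 and 39.3 CPM with a contig, against 50.1 and 34.9 CPM without, among C1q- barcodes. S100a6 had an interaction of 0.85, with 2018 and 2423 CPM with a contig, against 1194 and 1272 CPM without, among C1q+ barcodes, and 1477 and 1710 CPM, against 1484 and 1642 CPM, among C1q- barcodes.

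The other 5 genes belong to antigen-presenting and myeloid cells, with interactions of 3.40 for H2-Ab1, 2.97 for H2-Aa, 2.82 for H2-Eb1, 3.05 for Fcer1g and 3.03 for Tyrobp. The rule chose C1q+ barcodes by macrophage RNA, with or without a contig, and C1q- barcodes by the lack of C1q UMIs. It thus shaped these 5 interactions, which are a description and not a test. H2-Aa was at 474 and 603 CPM with a contig, against 664 and 804 CPM without, among C1q+ barcodes. Among C1q- barcodes it was at 9.70 and 9.57 CPM with a contig, against 165 and 50.8 CPM without. Among the C1q+ barcodes of mouse 2, 1 without a contig held 188 of the 611 H2-Aa UMIs. In C1q- barcodes each of the 5 genes was lower with a contig than without in both mice, with log2 fold changes of -3.56 for H2-Ab1, -3.32 for H2-Aa, -3.06 for H2-Eb1, -2.93 for Fcer1g and -3.07 for Tyrobp.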

How the results depend on the processing

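Counts of called genes moved by over 1.5 times under these alternatives. For C1q+ against C1q- barcodes (774 genes) they were 382 with DESeq2, 427 with no replicate block, 212 after thinning to 2000 UMIs and 476 for C1q+ barcodes without a contig against C1q- barcodes with exactly 1 TRB chain. The share of higher calls was 61.5%, against 87.4% with DESeq2 and 81.7% with no block. For barcodes with 1 TRB chain (432 genes) the count was 203 with DESeq2, 92.6% of them higher against 62.7%. For C1q+ barcodes with against without a contig (7 genes) it was 21 with DESeq2's size factors in edgeR, 1 with DESeq2, 2 with no block, 68 with no filter and 0 at a C1q sum of 5 or more. The share of C1q+ barcodes, 0.796% over the 2 mice, was 1.05% at a C1q sum of 2 or more, 0.551% at 5 or more, 0.283% at 10 or more and 0.302% after thinning. The shares with both T cell signals and with TRBV26 moved by less than the spread between mice under every alternative tried. Leaving out a mouse allows no test; the shares then ranged from 0.649 to 0.944%, 56.3 to 63.7% and 28 to 42.9%. Of the named genes, the log2 fold change of Cd3e turned to -0.0145 in C1q+ barcodes without a contig. Among barcodes with 1 TRB chain, Ccl5 was at -0.13 without mouse 2 and 0.63 without mouse 1, Ly6c2 at -0.86 and 1.86, Nr4a2 at -0.16 and 2.35, and Ube2c at 1.66 and -0.27. Ube2c was at -0.76 at a sum of 5 or more. With the T cell list as library size, all 49 named calls of that comparison still passed in the same direction. With no filter the median of all genes shifted to -0.32 and, with 1 TRB chain, -0.55. Few barcodes per class limit every gene of low level.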

Other observations

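Ighm, the immunoglobulin heavy chain constant gene, was at 101 and 71.3 CPM in C1q+ barcodes of mouse 1 and mouse 2, against 163 and 193 CPM in C1q- barcodes. It was found in 15 of 64 and 22 of 91 C1q+ barcodes, and in 32.5% and 39.3% of C1q- barcodes. Of other B cell genes, Cd79a had no UMI in C1q+ barcodes, while Cd79b was in 6 of 64 and 2 of 91. Xist was at 231 and 292 CPM in C1q+ barcodes with 1 TRB chain, against 393 and 397 CPM in C1q- barcodes (log2 fold change -0.58 ± 0.14 SE, adjusted p = 0.00309, edgeR), and it did not pass with DESeq2 or with no block. No C1q+ barcode had a UMI of Ddx3y, Eif2s3y, Kdm5d or Uty, genes of the Y chromosome. Il10, an anti-inflammatory cytokine gene, was at 96.5 and 45.1 CPM in C1q+ barcodes with 1 TRB chain, against 26.2 and 22.3 CPM in C1q- barcodes. Il10 is on the macrophage cytokine and chemokine list, so its values are a description without a test. Il10 was in 3 of 28 and 6 of 50 of these C1q+ barcodes, and 1 barcode held 21 of its 23 UMIs in mouse 1.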
